A study of Oryza sativa with 6 samples.

Results

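Transcripts of the 8 soluble starch synthase genes of rice were compared between grains of the mutant sg34 and grains of its wild type, Zhenong 34. The genes were chosen by locus ID and name as the rice members of this enzyme class: SSI (LOC_Os06g06560), SSIIa (LOC_Os06g12450), SSIIb (LOC_Os02g51070), SSIIc (LOC_Os10g30156), SSIIIa (LOC_Os08g09230), SSIIIb (LOC_Os04g53310), SSIVa (LOC_Os01g52250) and SSIVb (LOC_Os05g45720). They are 8 of 55986 rows in the deposited table, and the deposited annotation describes each as a starch synthase. By their locus IDs, SSI and SSIIa lie on chromosome 6, SSIIb on 2, SSIIc on 10, SSIIIa on 8, SSIIIb on 4, SSIVa on 1 and SSIVb on 5. Each line was represented by 3 libraries of messenger RNA from grains of the mature period. The labels name neither the mutated gene nor how the mutant was made, so no targeted gene could be examined. Nor do they state that replicates are separate plants, and p-values thus reflect the spread among 6 libraries, some of which could be technical.

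Soluble starch synthases transfer glucose from ADP-glucose to the ends of linear glucan chains inside plastids and, with branching and debranching enzymes, build amylopectin, the branched part of starch. Granule-bound starch synthase (GBSSI), a related enzyme inside the granule, makes the nearly unbranched amylose. In rice endosperm SSI is known for extending short chains, SSIIa for extending these to intermediate length, and SSIIIa for long chains that span clusters. SSIIb and SSIIIb are known as the copies expressed mainly in leaves. The SSIV class is known from Arabidopsis to act in starting granules.

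Values are TPM, a relative transcript abundance corrected for transcript length and library total, so levels of different genes can be set side by side. The number of reads behind a TPM value is unknown here, and no counting limits are given. In bulk grain, fewer cells of a type and less RNA per cell cannot be told apart. Wild type replicate 1 stood apart: 4 glutelin genes and a globulin gene of the endosperm took 13.9%, 13.6% and 11.2% of TPM in sg34 replicates 1, 2 and 3, against 2.69%, 12.3% and 9.93% in wild type replicates 1, 2 and 3. Each of these 5 markers was above 0 in every library. The summed TPM of 4 green tissue genes were 31.7, 92.9 and 73.2 in sg34, against 257, 9.25 and 40.3 in the wild type. Their members went different ways: 2 genes for the small subunit of Rubisco summed to 8.47, 29.6 and 25.5 TPM in sg34, against 225, 6.11 and 20.9 TPM in the wild type, while 2 genes for chlorophyll-binding proteins summed to 23.2, 63.2 and 47.8 TPM in sg34, against 31.5, 3.14 and 19.4 TPM in the wild type. The 2 oleosin genes of embryo and aleurone oil bodies summed to 2178 to 3276 TPM in sg34 and 991 to 4109 TPM in the wild type.

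Transcripts of SSIIa, SSI and SSIIIa made up nearly all soluble synthase message in both lines. SSIIIa, the long-chain enzyme, took 27.8% ± 3.99 of the summed soluble synthase TPM in sg34 and 13.2% ± 5.26 in the wild type (SD, n = 3 each). Its shares did not overlap, but the exact permutation p was 0.1, the smallest these libraries allow, and 0.4 adjusted over the 8 isoforms. Among all pairs of tested genes above 0 in every library, 23.9% had ratios that did not overlap between the lines, in either direction. Those are ratios of single genes, and the same percentage for shares of a sum was not computed. The shares of SSI and SSIIa overlapped between the lines. The mean level of SSIIIa was higher and those of SSI and SSIIa were lower in sg34, and no single isoform passed the test across all genes.

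The levels ran from 0.30 to 452 TPM in sg34 and from 0.12 to 983 TPM in the wild type. In sg34 the ranges of 3 isoforms overlapped at the top, with SSIIa at 265 to 452 TPM, SSI at 187 to 315 TPM and SSIIIa at 221 to 249 TPM. In the wild type SSIIa (456 to 983 TPM) and SSI (362 to 510.0 TPM) overlapped at the top, and SSIIIa (118 to 224 TPM) lay below both. Below them the order was the same in all 6 libraries. SSIVb had rank 4, SSIIc rank 5, SSIIIb rank 6, SSIVa rank 7 and SSIIb rank 8. Neighbours in this order did not overlap within a line, except SSIVa and SSIIb, which overlapped in both. SSIIIa had rank 2, above SSI, in sg34 replicates 1 and 2, and rank 3 in sg34 replicate 3 and in every wild type library.

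**Figure D1:**
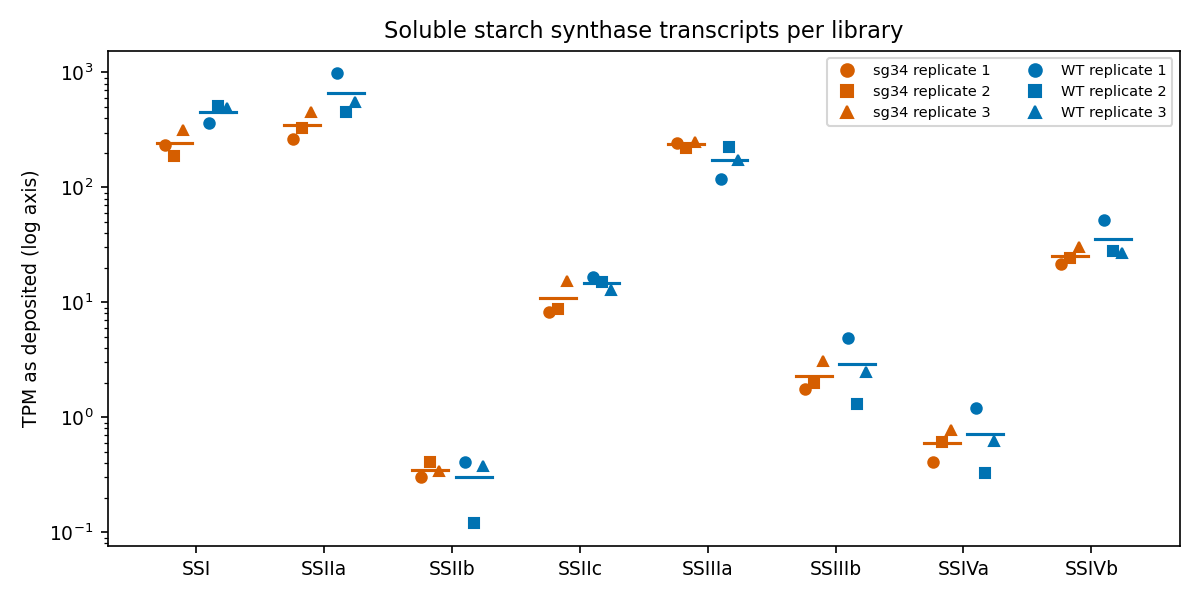
TPM as deposited, on a log axis, of the 8 soluble starch synthase genes in each library, with sg34 left of WT (Zhenong 34) for each gene; symbols mark the replicate and lines the mean of 3 libraries. SSIIIa reached the level of SSI in sg34 and lay below it in the wild type, while SSIIb and SSIVa stayed at 1.20 TPM or less.

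SSI, the short-chain enzyme, had 234, 187 and 315 TPM in sg34, against 362, 510.0 and 489 TPM in the wild type. Every sg34 library lay below every wild type library on this scale. Its means were 245 ± 64.8 TPM in sg34 and 454 ± 80.0 TPM in the wild type (SD, n = 3 each). TPM are shares of a whole, and sg34 libraries held more storage protein message than wild type replicate 1, so TPM were also divided by trimmed mean of M values (TMM) factors. These factors centre the bulk of genes: over the 16917 genes tested, the median log2 difference was -0.02 with them and -0.43 without. After this scaling SSI had 328, 237 and 299 in sg34, against 221, 614 and 394 in the wild type, and the lines overlapped. The log2 difference of the scaled values was -0.40 ± 0.41 (SE), with a 95% interval from -1.38 to 0.58 (limma adjusted p = 0.634). Without rescaling it was -0.90 ± 0.40 (SE, limma adjusted p = 0.316). The scaled difference of SSI also moved with single libraries. It was -0.78 without wild type replicate 1 and -0.049 without wild type replicate 2 (limma adjusted p = 0.283 and 0.945). With library weights, which let limma give less weight to noisier libraries, it was -0.73 (limma adjusted p = 0.0697), where 21.9% of all tested genes passed.

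SSIIa, whose natural variants are known to alter the gelatinization temperature of rice starch, had 265, 327 and 452 TPM in sg34, against 983, 456 and 549 TPM in the wild type. It was the other isoform with every sg34 library below every wild type library, by a narrow margin between sg34 replicate 3 and wild type replicate 2. The groups also did not overlap after scaling, at 372, 414 and 429 in sg34, against 599.9, 549 and 442 in the wild type. Such a gap towards lower values was found in 13.2% of all tested genes after scaling and in 17% of them before it. The log2 difference of scaled values was -0.38 ± 0.27 (SE), with a 95% interval from -1.03 to 0.27 (limma adjusted p = 0.497), and -0.88 ± 0.46 (SE) without rescaling (adjusted p = 0.343).

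SSIIIa, whose loss is known to give floury endosperm in rice, had 241, 221 and 249 TPM in sg34, against 118, 224 and 172 TPM in the wild type. Wild type replicate 2 lay within the sg34 range, and wild type replicate 1 was the lowest of the 6. The spread within sg34 was small, with a coefficient of variation of 6.23%, against 31.0% in the wild type. After scaling SSIIIa had 338, 279.7 and 237 in sg34, against 71.96, 269.9 and 139 in the wild type, and the lines again overlapped. Its log2 difference of 1.01 ± 0.48 (SE), with a 95% interval from -0.13 to 2.15 (limma adjusted p = 0.343), was the largest of the 6 tested isoforms in either direction. It moved with single libraries and with the scaling: it was 0.55 without wild type replicate 1, 1.49 without wild type replicate 2 and 0.51 without rescaling, with limma adjusted p of 0.504, 0.101 and 0.425. With library weights, which let limma give less weight to noisier libraries, it was 0.92 (adjusted p = 0.0405), the 1 setting in which a soluble synthase passed, where 21.9% of all tested genes passed.

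The remaining isoforms had low levels. SSIVb, of the granule-initiating class, had 21.4, 24.1 and 30.1 TPM in sg34, against 52.0, 28.1 and 26.7 TPM in the wild type. The lines overlapped, and wild type replicate 1 was the highest. After scaling the 3 sg34 libraries lay between 28.7 and 30.5, inside the wild type range of 21.5 to 33.8, and the log2 values differed by 0.06 ± 0.22 (SE; limma adjusted p = 0.904). SSIIc, the third copy of the SSII class, had 8.24, 8.74 and 15.5 TPM in sg34, against 16.5, 15.1 and 12.9 TPM in the wild type, and its scaled log2 values differed by -0.0089 ± 0.27 (SE; limma adjusted p = 0.989). Sg34 replicate 3 lay within the wild type range.

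SSIIIb had 1.75, 2.0 and 3.07 TPM in sg34, against 4.90, 1.31 and 2.46 TPM in the wild type, which after scaling differed by 0.21 ± 0.21 (log2, SE; limma adjusted p = 0.622). Its sg34 values fell inside the wild type range. SSIVa and SSIIb did not reach 1 TPM in 3 libraries and were not tested. SSIVa had 0.41, 0.61 and 0.77 TPM in sg34, against 1.20, 0.33 and 0.62 TPM in the wild type. SSIIb had 0.30, 0.41 and 0.34 TPM in sg34, against 0.41, 0.12 and 0.38 TPM in the wild type. For SSIIa, SSIIc, SSIIIb, SSIVa and SSIVb the highest of the 6 TPM values was that of wild type replicate 1. This library also had the largest TMM factor, 1.64, and the share of all genes highest in it was not computed. After scaling it stayed highest for SSIIa and SSIIIb only. Wild type replicate 2 was then highest for SSIIc and SSIVb, and sg34 replicate 2 for SSIVa. Wild type replicate 1 had the highest sum of the 2 Rubisco genes, though not of the 2 chlorophyll-binding genes. The part of green tissue message in the isoform values was not tested. SSIIIa and SSIIIb carry the same description, as do SSIVa and SSIVb. Whether reads were shared between such copies was not measured, and the low copies are the more uncertain.

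Of the 6 tested isoforms, 0 passed at limma adjusted p under 0.05 and 0 had an unadjusted p under 0.05, where 3.78% of all tested genes passed and 17% had an unadjusted p under 0.05. The log2 differences were above 0 for 3 isoforms and below 0 for 3, and their median was 0.03, close to the median of all genes. Without rescaling 1 was above 0 and 5 were below, with a median of -0.45, against -0.43 for all genes. The direction of SSIIIb and SSIVb turned with the scaling, to -0.16 and -0.43, and that of SSIIc turned in 3 of 6 fits without a library.

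**Figure D2:**
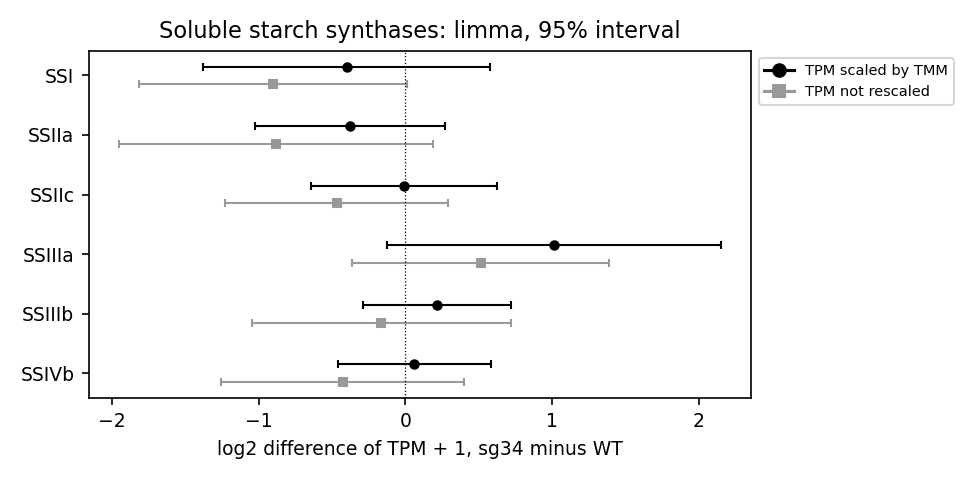
Log2 difference of TPM + 1, sg34 minus WT (Zhenong 34), for the 6 tested isoforms, with limma 95% intervals from 3 libraries per line; black circles are TPM scaled by TMM and grey squares TPM not rescaled. All 6 intervals of the scaled values include 0, and SSIIIa lay highest in both at 1.01 and 0.51.

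The share of each isoform in the summed soluble synthase TPM of its own library is not moved by library scaling. SSIIIa took 31.2%, 28.7% and 23.4% in sg34, against 7.67%, 18.1% and 13.7% in the wild type. Every sg34 library lay above every wild type library. The difference of 14.6 percentage points had an exact two-sided permutation p of 0.1, the smallest that 3 against 3 libraries allow, and 0.4 after adjustment over 8 isoforms. It was 11.8 points without wild type replicate 1, and between 11.8 and 17.1 points when any 1 library was left out.

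SSI took 30.3%, 24.2% and 29.5% in sg34, against 23.5%, 41.3% and 39.1% in the wild type. SSIIa took 34.3%, 42.4% and 42.4% in sg34, against 63.9%, 36.9% and 43.8% in the wild type. Both overlapped between the lines. The difference was -6.61 points for SSI and -8.48 points for SSIIa (exact permutation p = 0.4 each). It moved with wild type replicate 1, without which it was -12.2 points for SSI and -0.63 points for SSIIa. The 3 abundant isoforms together took 95.3% to 95.8% of the sum in sg34 and 95.1% to 96.6% in the wild type. SSIVb took 2.91% ± 0.19 in sg34 and 2.59% ± 0.684 in the wild type, and SSIIc took 1.22% ± 0.205 in sg34 and 1.11% ± 0.103 in the wild type (SD, n = 3 each). The shares of SSIIb did not overlap either, at 0.0319% to 0.0532% in sg34 and 0.00972% to 0.0303% in the wild type, but they rest on levels under 0.5 TPM.

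**Figure D3:**
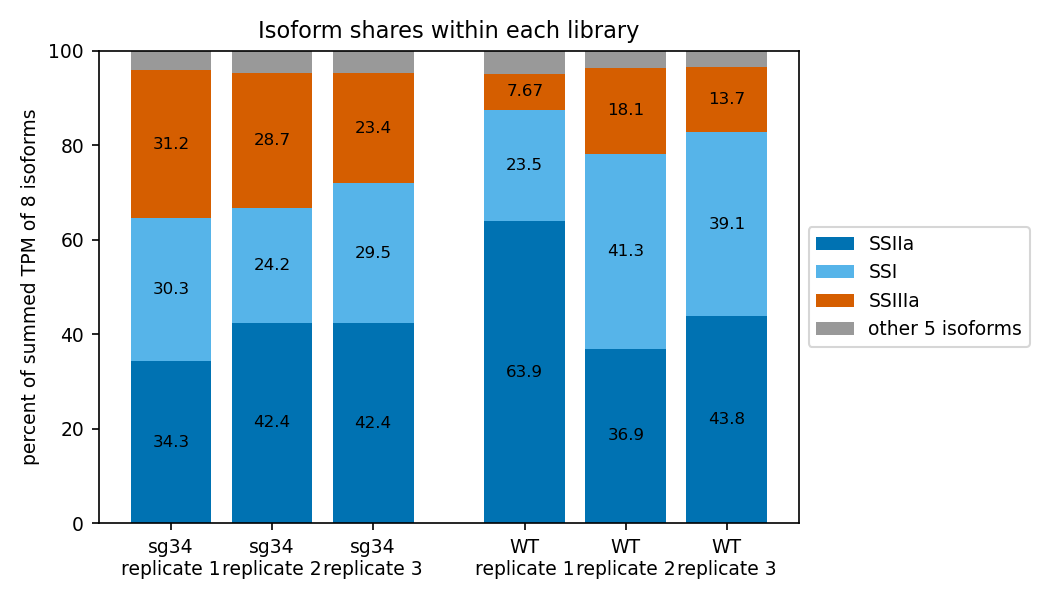
Percent of the summed TPM of 8 soluble starch synthases taken by SSIIa, SSI, SSIIIa and the other 5 isoforms together, 1 bar per library, with the 3 sg34 libraries left of the 3 WT (Zhenong 34) libraries. The SSIIIa segment spanned 23.4% to 31.2% in sg34 and 7.67% to 18.1% in the wild type.

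Ratios between isoforms of the same library gave the same comparison pair by pair. The ratio of SSIIIa to SSI was 1.03, 1.18 and 0.793 in sg34, against 0.326, 0.439 and 0.352 in the wild type. These values did not overlap, and the log2 ratio differed by 1.42 (exact permutation p = 0.1). The ratio of SSIIIa to SSIIa was 0.909, 0.675 and 0.552 in sg34, against 0.12, 0.491 and 0.314 in the wild type, a log2 difference of 1.40 (exact permutation p = 0.1). These values did not overlap either, though sg34 replicate 3 and wild type replicate 2 were close. Of the 15 pairs of tested isoforms, 6 did not overlap between the lines, each with an exact permutation p of 0.1 and 0.25 after adjustment over the 15 pairs. Over all pairs of tested genes above 0 in every library, 23.9% did not overlap, counted in either direction. SSIIIa was in 4 of the 6 pairs, those with SSI, SSIIa, SSIIc and SSIVb, and its level relative to the partner was higher in sg34 than in the wild type in each. Set against each of the other 16457 tested genes above 0 in every library, SSIIIa was relatively higher in all sg34 libraries for 28.5% of genes. SSI was relatively lower for 17.5% and SSIIa for 26.5%. These percentages count a single direction each, taken from the isoform's own difference, so they are not on the footing of the 23.9%. The opposite directions and the other isoforms are not given here. The other 2 pairs were SSIIa with SSIIIb and with SSIVb, with SSIIa relatively lower in sg34 in both. The ratio of SSIIa to SSIVb was 12.4, 13.6 and 14.98 in sg34, against 18.9, 16.2 and 20.6 in the wild type. The log2 ratio of SSI to SSIIa differed by -0.02 between the lines, with overlapping values.

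Summed over the 8 genes, soluble synthases had 772, 770.0 and 1066 TPM in sg34, against 1538, 1235 and 1253 TPM in the wild type. These sums did not overlap, with 869 ± 170.0 TPM in sg34 and 1342 ± 170.2 TPM in the wild type (SD, n = 3 each), a log2 difference of -0.64 (exact permutation p = 0.1). After scaling they overlapped, at 1083, 976 and 1013 in sg34, against 939, 1488 and 1009 in the wild type, with a log2 difference of -0.13 (exact permutation p = 0.9). The lower sum in sg34 thus depended on the scale used.

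GBSSI, the amylose enzyme, was 12.3, 11.9 and 11.9 times the soluble sum in sg34, against 1.81, 2.67 and 1.71 times in the wild type. The log2 ratio differed by 2.57, with no overlap (exact permutation p = 0.1), and by 2.45 to 2.77 when any 1 library was left out. Of the pairs of single tested genes above 0 in every library, 23.9% did not overlap, in either direction. GBSSI alone had a scaled log2 difference of 2.44 ± 0.59 (SE, limma adjusted p = 0.0896). The limma adjusted p was 0.178 without rescaling and 0.00409 with library weights.

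**Figure D4:**
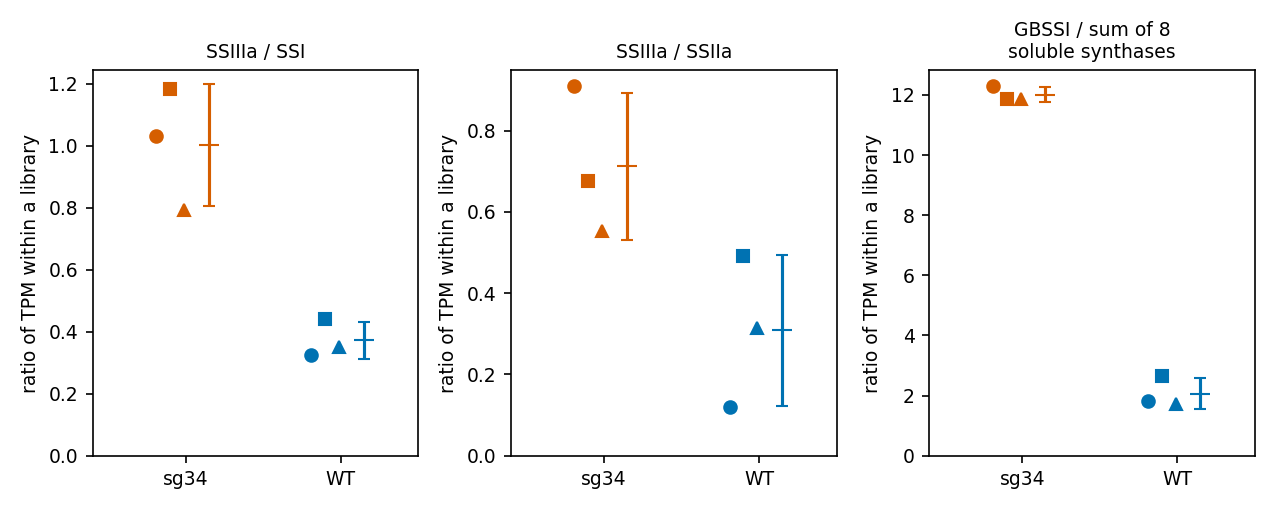
Ratios of TPM within each library for SSIIIa to SSI, SSIIIa to SSIIa and GBSSI to the sum of the 8 soluble synthases, with sg34 left of WT (Zhenong 34); symbols mark replicates and bars the mean ± SD of 3 libraries. In each panel the 3 sg34 libraries lay above the 3 wild type libraries, with the narrowest gap, 0.552 against 0.491, for SSIIIa to SSIIa.

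The other starch synthesis genes were tested in the same fit. Of 21 listed genes 20 were in the table and tested. At limma adjusted p under 0.05, 0 passed, and 5 had an unadjusted p under 0.05. Over all tested genes 3.78% passed and 17% had an unadjusted p under 0.05. With library weights 3 passed, all higher in sg34, where 21.9% of all tested genes passed. The 4 with the smallest p were the branching enzyme gene BEIIa, GBSSI, and the AGPL1 and AGPL3 genes for large subunits of the enzyme that makes ADP-glucose. BEIIa had 19.7, 24.6 and 38.3 TPM in sg34, against 16.02, 16.2 and 13.4 TPM in the wild type. After scaling the log2 difference of BEIIa was 1.24 ± 0.28 (SE, limma adjusted p = 0.0739). The limma adjusted p was 0.0205 without wild type replicate 2, and 0.109 to 0.273 without each other library in turn. Without rescaling the log2 difference was 0.77 (limma adjusted p = 0.315). AGPL1 had a log2 difference of 0.95 ± 0.31 and AGPL3 of -0.55 ± 0.21 (SE), with limma adjusted p of 0.197 and 0.255. The list median was 0.03, the same as for the soluble isoforms at 2 decimals, and 11 members were above 0 and 9 below. The ratio of the summed soluble synthases to the other starch synthesis genes without GBSSI was 0.0829, 0.0727 and 0.0745 in sg34, against 0.0794, 0.0855 and 0.0912 in the wild type. It overlapped between the lines, with a log2 difference of -0.16 (exact permutation p = 0.2).

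**Figure D5:**
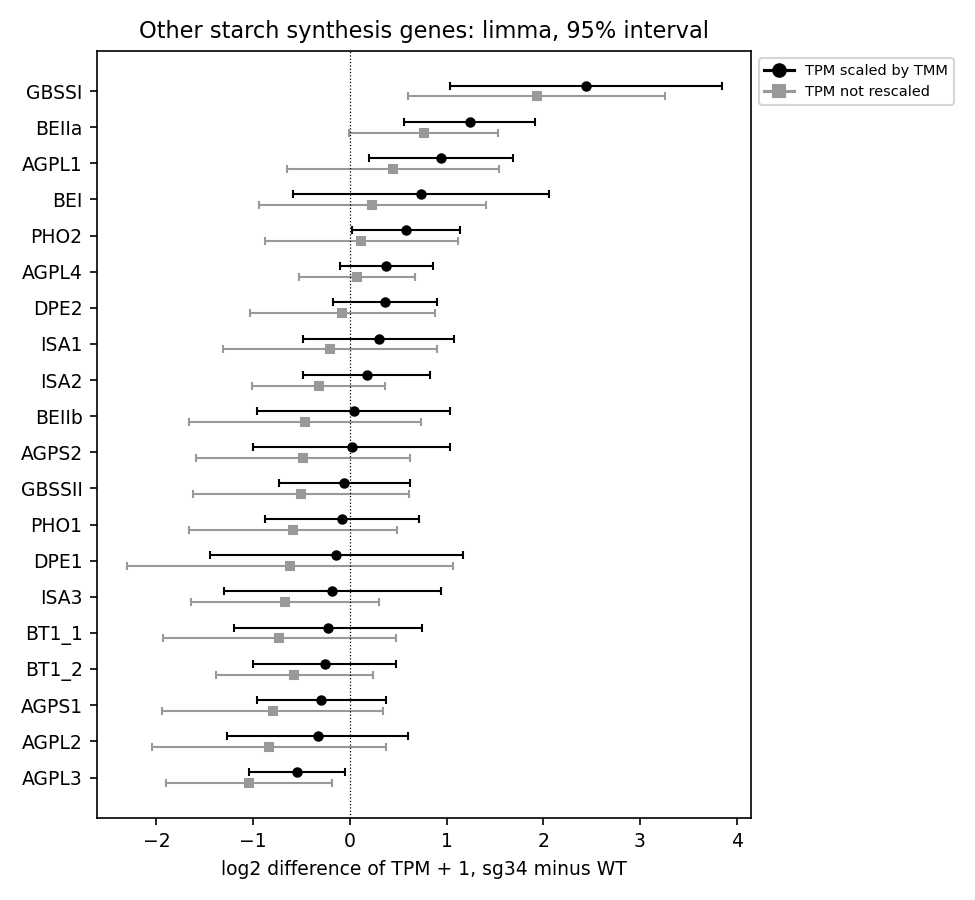
Log2 difference of TPM + 1, sg34 minus WT (Zhenong 34), of 20 other starch synthesis genes, with limma 95% intervals from 3 libraries per line; black circles are TPM scaled by TMM and grey squares TPM not rescaled. GBSSI, BEIIa and AGPL1 lay highest after scaling at 2.44, 1.24 and 0.95, and AGPL3 lowest at -0.55.

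All 8 members share a glycosyltransferase family 5 domain in the deposited annotation, and SSIIIa and SSIIIb alone among them also carry a starch-binding domain named CBM53. Outside the 8 genes, the table holds 1 further expressed row described as a probable starch synthase 4, LOC_Os02g56320, in which the annotation gives the family 5 domain and no second glycosyltransferase domain. It had 14.99, 23.5 and 39.2 TPM in sg34, against 35.9, 32.6 and 42.8 TPM in the wild type, which after scaling differed by -0.11 ± 0.30 (log2, SE; limma adjusted p = 0.870). Its range overlapped that of SSIVb in both lines. A row described as a soluble starch synthase 2-3, LOC_Os07g13880, was listed at 0.11 TPM in wild type replicate 3 and at 0 in the other 5 libraries, and LOC_Os10g14040, described as a soluble starch synthase 1, was listed at 0 in all 6.

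The genes whose profile over the 6 libraries lay nearest to that of SSIIa or SSI were found from the root mean square difference of centred log2 values, among 5029 described genes with a mean of at least 10 TPM. For SSIIa they were LOC_Os03g03180, described as a rhodopsin, LOC_Os03g58130, described as a PITH domain protein, and LOC_Os04g48770, described as a ubiquitin fusion degradation protein, at 0.047, 0.048 and 0.052. For SSI they were LOC_Os09g29810, described as a Copia protein, LOC_Os05g50654, described as a mitochondrial import receptor subunit, and LOC_Os07g12080, described as an alpha-amylase and trypsin inhibitor, at 0.11, 0.13 and 0.19. These deposited descriptions were not checked, and none of the 6 genes was in the starch synthesis lists.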

How the data were processed

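Per the labels, grain RNA libraries were made with the SMARTER mRNA-Seq kit. The deposited table holds TPM made by the authors, which sum to 967528 to 991476 per library. The tools DESeq2 1.12.4, RSEM, Bowtie2, StringTie and HISAT2 2.1.0 are listed, without roles, per the submitters' processing notes. These also list a mouse genome build, at odds with rice locus IDs. The rice build is not given in the sources used here, and no coordinates are printed. Mutant columns are named sg31, sg32 and sg33. They were read as replicates 1, 2 and 3 of sg34, since the labels give 1 mutant, and all mutant values depend on this match. The deposited means equalled the means of these columns within 0.0001, and 0 further columns held per-sample values.

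The 16917 rows reaching 1 TPM in 3 or more libraries were tested as log2(TPM + 1), after division by unweighted TMM factors (30% of M and 5% of A values trimmed), with limma 3.58.1 in R 4.3.3, a variance trend, and adjustment by Benjamini and Hochberg over all these rows at 0.05. Fold changes on this scale understate the change of low genes. The test was checked on simulated data with the same spread in both lines. Its power for differences of the sizes seen here is not given. Shares, sums and ratios were compared with exact two-sided permutation tests over libraries. Members, lists and tests were chosen with earlier results of these data known. Named genes are all 8 isoforms, the 4 other starch synthesis genes with the smallest p, and the 3 genes of most similar profile for each of the 2 most abundant isoforms. List members with no row are not analysed here.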

Additional observations from a re-analysis of the deposited data

How the results depend on the processing

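The number of soluble synthases that passed was 0 in each limma alternative except library weights, with 1, and 0 without any 1 library. For the other starch synthesis genes it was 3 with library weights and 0 to 1 without a library (BEIIa without wild type replicate 2). Over all genes 639 passed, against 279 under the stricter filter of 5 TPM (fewer genes tested), 3708 with library weights and 316 to 756 without a library. The labels do not say whether replicate numbers mark pairs. For replicates 1, 2 and 3 the deviations from the line means correlated across genes at -0.54, 0.0022 and -0.37. With 3 libraries a line, such values cannot tell how the samples were collected. In the fit with the replicate block 260 genes and 0 soluble synthases passed. Signs turned for SSIIIb (-0.16) and SSIVb (-0.43) without rescaling, and for SSIIc (0.0027) with median-of-ratios factors. Without a library, SSIIc ran from -0.14 to 0.25 and SSIVb from -0.14 to 0.18 (log2), the share of SSIIc differed by -0.0081 to 0.18 points, and the scaled sum by -0.26 to 0.072 (log2), above 0 without wild type replicate 2. The causes were not tested. The GBSSI ratio and the share differences of all isoforms but SSIIc kept their direction in every alternative run, so this was not particular to SSIIIa. So did the limma log2 differences of SSI, SSIIa, SSIIIa, GBSSI, BEIIa, AGPL1 and AGPL3. With 3 libraries a line, exact tests cannot go below 0.1, and unknown depth leaves SSIIb and SSIVa without a detection limit.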
